A study of Mus musculus with 18 samples.

Results

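RNA that came down with an antibody to Kif5A from sciatic nerve axoplasm of C57B6 mice was compared with RNA of input axoplasm. The comparison rests on 6 of the 18 libraries of the study, 3 Kif5A precipitates and 3 inputs, and on all 12867 genes of the sciatic nerve table with enough counts to test, of 13555 gene names. The other libraries are IgG precipitates of the same nerve, and Kif5A, IgG and input libraries of dorsal root, the part of the sensory axon close to the cell body. Each library comes from 1 of 3 biological repeats, each a pool of 5 animals, and the samples carry no genotype or drug. For a precipitate, 10 ug of rabbit polyclonal anti-Kif5A, or of rabbit IgG as isotype control, was left for 3 h with roughly 200 ug of nerve protein, while the input went through no antibody step. The p-values measure the spread between these pools, and the labels used here give no age. Named counts summed to 14658466, 19897848 and 17297357 in Kif5A libraries 1 to 3, against 16900707, 12256188 and 20249552 in inputs 1 to 3.

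Kif5A is one of the heavy chains of kinesin-1, the motor that walks along axonal microtubules away from the cell body. Heavy chains bind cargo directly, through kinesin light chains, or through adaptors, and mRNAs are carried as particles with RNA-binding proteins. Axoplasm prepared from a nerve is rich in axonal contents, but Schwann cells, fibroblasts, perineurial cells, vessels, blood and fat surround the axons and contribute RNA of their own. A precipitate set against its input therefore asks which mRNAs take a larger or smaller share of the library after the antibody step. It gives shares and not recovered amounts, and the isotype control has to be read beside it, since RNA can also be held by the beads.

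In the inputs, transcripts of the ensheathing cells were abundant. The 20 myelinating Schwann cell genes with a row summed to 22306, 25520 and 35494 CPM in inputs 1 to 3, where CPM is a gene's count scaled to the library's total of named counts and its TMM factor. Of a list of 22 sensory neuron markers 9 were analysed here, and they summed to 357.7, 368.2 and 262.8 CPM in the same inputs. Libraries numbered 3 stood apart in both groups. The correlation of log levels across genes was 0.94 between Kif5A libraries 1 and 2, but 0.90 and 0.91 between library 3 and these. It was 0.98 between inputs 1 and 2, but 0.91 and 0.90 with input 3.

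No gene passed an adjusted p of 0.05 between Kif5A precipitates and inputs with edgeR's quasi-likelihood test, and the smallest adjusted p over 12867 genes was 0.447. At an unadjusted p under 0.05 there were 677 genes higher (5.26% of those tested) and 579 lower (4.5%). The same counts gave 160 calls with DESeq2, 94 higher (0.731%) and 66 lower (0.513%), and 0 with limma-voom. With the replicate number as a block, 4 genes passed the edgeR test. Without Kif5A library 3, 2 genes passed, Gpihbp1 and A530016L24Rik, and without both libraries numbered 3, 1717 passed. Every gene named below is therefore described by its values in each library, and its fold change is not a call unless a test is named.

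A second description used below is whether all 3 Kif5A libraries lay above, or all 3 below, the 3 inputs. This held for 1104 genes above (8.58%) and for 1080 genes below (8.39%). With library size alone in place of TMM the split was 1614 above and 778 below, and with DESeq2 size factors 1026 above and 1181 below. The median log2 ratio of all genes was 0.04 with TMM and 0.21 with library size alone. Changes below are on the TMM scale, on which 6772 of the 12867 genes tested had a positive log2 fold change.

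The mRNAs of the cytosolic ribosome took a smaller share of every Kif5A precipitate. Their 78 genes, all of which were tested, summed to 8701, 15866 and 22202 CPM in Kif5A libraries 1 to 3, against 32848, 31861 and 32803 CPM in inputs 1 to 3. The inputs lay within a narrow band and all 3 precipitates were below it, the first lowest. Of the 78, 75 had a negative log2 fold change, with a median of -0.89 beside 0.04 for all genes, and the 3 others, Rps19, Rpl5 and Rpl22, were at 0.16, 0.04 and 0.01. For 47 of the 78 the Kif5A libraries lay wholly below the inputs and for 0 wholly above. Within same-numbered pairs the median log2 ratio was -1.55, -0.92 and -0.51 in pairs 1 to 3, and 62 members were negative in all 3 pairs (79.5%, beside 19.2% of all genes). IgG libraries 1 to 3 summed to 13855, 13441 and 24007 CPM, also below all inputs, and 40 of the 78 genes were below all inputs there. Over all 12867 genes tested, the IgG libraries lay wholly below the inputs for 1777 and wholly above for 1341.

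The smallest unadjusted p of the ribosomal protein genes belonged to Rpl41, the shortest protein of the large subunit, with 16.02, 33.2 and 46.4 CPM in Kif5A libraries 1 to 3, against 108.5, 93.8 and 88.0 CPM in the inputs. All precipitates were below all inputs. Its log2 fold change was -1.60 ± 0.40 (SE, n = 3 each; edgeR adjusted p = 0.447), and DESeq2 gave an adjusted p of 0.0269. The lowest log2 fold change was that of Rps12 of the small subunit, at -1.98. Near-identical processed copies of ribosomal protein genes are common, and single values are uncertain to that extent.

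**Figure D1:**
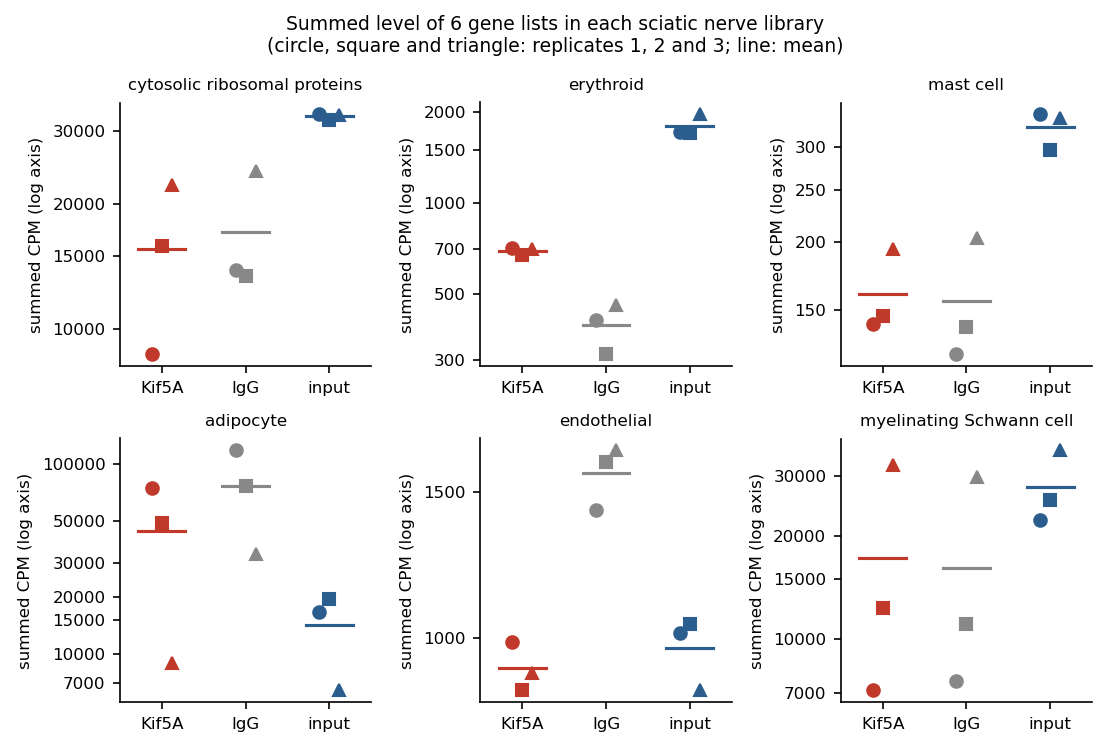
Summed CPM of the members of 6 gene lists in each sciatic nerve library (log axes), with circles, squares and triangles for replicates 1, 2 and 3 and a line at the mean of the 3. Ribosomal protein, erythroid and mast cell sums of the Kif5A libraries all lie below those of the inputs, while adipocyte sums run from 8952 to 74752 CPM in Kif5A libraries and overlap the inputs, and the triangles (replicate 3) are low for fat and high for myelin in every group.

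Many ribosomal protein mRNAs begin with a 5′ terminal oligopyrimidine tract (TOP), a C followed by a run of C and T. The tract couples their translation to the mTOR pathway, and the starts listed by RefSeq (GRCm38.p6) were searched for it. The first 20 transcribed bases are shown for the 4 genes with a tract, a C and at least 4 pyrimidines after it on the transcribed strand, and the 2 without one at the listed start, that had the smallest unadjusted p of those with a listed start. The tract is in capitals.

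Rplp2: CTTTCgccgccggacgccgc

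Rps21: CTCCTgcccaatagtgctgc

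Rpl35a: CTCTTTCCgccatcttggcg

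Rpl38: CTTTCCCCgttctcttcggt

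Rpl41: ggaagtgacgacaccgagca

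Rps12: accgccggccttttcccctg

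These lie at chr7:141447651-141447670, chr2:180257379-180257398, chr16:33056482-33056501 and chr11:114668580-114668599 on the plus strand, and at chr10:128549149-128549168 and chr10:23787190-23787209 on the minus strand. Rplp2, Rps21, Rpl35a and Rpl38 had log2 fold changes of -1.15, -1.67, -1.16 and -1.47, and Rpl41 and Rps12, which lack the tract at the listed start, were at -1.60 and -1.98. A tract was found at 14 of the 57 ribosomal protein genes with a listed start (24.6%), against 285 of 9040 genes tested (3.15%) and 813 of 27025 RefSeq genes in all (3.01%). Ribosomal protein genes with and without it at the listed start had medians of -0.87 and -0.87, with 7 of 14 and 25 of 43 wholly below the inputs. This split rests on the listed start alone, and in Rps12 a run of C and T begins a few bases after it. It therefore cannot decide whether the tract goes with the lower share. The 271 other genes with a tract had a median of 0.02, and the 8712 without either had 0.07.

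Nuclear-encoded subunits of the respiratory chain and ATP synthase were lower in part. Of 82 tested, 57 had a negative log2 fold change, the median was -0.56, and 30 lay wholly below the inputs while 1 lay wholly above. With the 83 members that have a row, the sums overlapped, at 11159, 13591 and 15399 CPM in Kif5A libraries 1 to 3 and 16867, 15361 and 26369 CPM in the inputs. Without input 3 the median was -0.27. Ndufa5, a subunit of complex I, had 41.3, 79.4 and 117.8 CPM in the precipitates, against 235.9, 219.6 and 185.3 CPM in the inputs (log2 fold change -1.43 ± 0.40, adjusted p = 0.447 with edgeR). Atp5l, a membrane subunit of ATP synthase, was at 38.5, 64.5 and 82.1 CPM against 143.3, 115.6 and 151.2 CPM in the inputs. Mitochondrial ribosomal proteins, another family of short nuclear-encoded mRNAs, were near the level of all genes with a median of -0.11 and 9 of 74 wholly below, and in replicate pairs 1 to 3 their medians were 0.09, 0.10 and -0.48. That median was 0.09 with library size alone, so its sign depends on the scaling.

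Other parts of the protein and RNA machinery lay nearer the level of all genes. Translation factors had a median of 0.10, with 7 of 55 wholly above and 5 wholly below the inputs. With library size alone 13 were above and 3 below, and without replicate 1 the median was -0.12. Eif4a2, an RNA helicase of translation initiation, had 27.6, 18.2 and 8.85 CPM in Kif5A libraries 1 to 3, against 6.26, 5.96 and 3.14 CPM in inputs 1 to 3 (log2 fold change 1.83 ± 0.56). Each pair had the precipitate higher, and IgG libraries reached 35.9, 43.2 and 5.86 CPM. Proteasome subunits, ER chaperones, the ER translocation machinery and splicing factors had medians of -0.12, 0.01, -0.11 and 0.08, of which those of the proteasome and ER translocation turn positive with library size alone (0.03 and 0.05) and that of ER chaperones negative with DESeq2 size factors (-0.02). The median of splicing factors was -0.03 without replicate 3 and at its lowest, -0.09, without Kif5A library 2. Within splicing factors Srrm2, a large nuclear speckle protein, had 481.4, 734.5 and 387.0 CPM in the precipitates against 269.4, 269.4 and 291.6 CPM in the inputs, while Snrpe, a small core snRNP protein, had 28.3, 35.7 and 45.5 CPM against 82.4, 80.2 and 79.1 CPM in the inputs.

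Globin mRNAs were lower in every precipitate than in any input. Within a bulk library fewer cells of a type and less RNA per cell cannot be told apart. The ratio of a precipitate over input axoplasm is read here as a difference in RNA share after the antibody step, not in cell content. Hbb-bs, the adult beta globin, had 280.5, 217.7 and 239.0 CPM in Kif5A libraries 1 to 3, against 726.0, 676.1 and 731.7 CPM in the inputs, and IgG libraries had 112.5, 74.9 and 84.4 CPM. The groups did not overlap, and the log2 fold change of -1.53 ± 0.30 had the smallest unadjusted p of the lower genes with at least 10 CPM and no overlap (adjusted p = 0.447 with edgeR, 0.000345 with DESeq2). Hba-a1, an alpha globin, had 243.8, 199.0 and 257.5 CPM against 510.4, 519.9 and 859.5 CPM in the inputs, and Hbb-bt had 64.6, 106.3 and 73.6 CPM against 242.5, 251.7 and 166.4 CPM. The 4 globin genes of the erythroid list, which have near copies, were wholly below the inputs and passed DESeq2. The list as a whole was not uniform: Alas2, the first enzyme of erythroid haem synthesis, was wholly above at 2.89 ± 0.38 CPM against 1.20 ± 0.59 CPM (SD, n = 3 each), and Bpgm and Car2 had log2 fold changes of 0.15 and 0.16. Its median of -0.64 moved between -0.08 without input 2 and -1.36 without Kif5A library 2.

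Mast cell genes were lower as a list. All 6 tested members had a negative log2 fold change, with a median of -0.98, and 4 were wholly below the inputs. Mcpt4, a chymase stored in granules of connective tissue mast cells, had 37.8, 43.7 and 49.8 CPM in Kif5A libraries 1 to 3, against 118.0, 97.9 and 107.9 CPM in the inputs (log2 fold change -1.30 ± 0.30). Cma1, another chymase, had 26.7, 30.0 and 55.6 CPM against 95.0, 76.4 and 74.4 CPM. The list summed to 140.9, 146.2 and 194.3 CPM in Kif5A libraries, against 345.3, 296.6 and 339.6 CPM in inputs. IgG libraries summed to 124.0, 139.3 and 203.6 CPM. Protease genes of this family have near copies.

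Skeletal muscle, connective tissue and perineurial genes were lower for some members. Of 13 muscle genes 11 had a negative log2 fold change and 5 were wholly below the inputs, with Mylpf, a fast myosin light chain, at 23.2, 66.7 and 112.1 CPM against 183.7, 224.2 and 236.8 CPM. Actn3, an actinin of fast fibres, was the 1 muscle gene wholly above. The fibroblast median was -0.47, with 5 of 25 wholly below, and it ran from -0.18 without input 2 to -0.77 without input 3. Fbln1 and Fbn1, which encode extracellular matrix glycoproteins, had log2 fold changes of -1.23 ± 0.34 and -1.62 ± 0.46. Lypd2, a member of the Ly6 family marking perineurial cells, had 46.0, 72.3 and 56.9 CPM against 211.4, 192.5 and 127.6 CPM in the inputs, and the tight junction scaffold Tjp1 had 117.1, 174.5 and 189.5 CPM against 404.8, 451.4 and 219.9 CPM. Of 10 perineurial genes, 9 had a negative log2 fold change, with a median of -0.55 that ran from -0.28 without input 1 to -0.85 without input 3. Among macrophage genes the signalling adaptors Fcer1g and Tyrobp were wholly below the inputs, and 14 of 19 members were negative with a median of -0.24.

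Adipocyte genes were higher in the first pairs and little higher in the third. All 17 tested members had a positive log2 fold change and the median was 1.87, the highest of the 31 lists, yet 0 of them were wholly above the inputs. The list summed to 74752, 49378 and 8952 CPM in Kif5A libraries 1 to 3, against 16680, 19376 and 6409 CPM in inputs 1 to 3. Library 3 of each group was low, so the groups overlap although each precipitate is above the same-numbered input. Median log2 ratios within pairs were 2.44, 1.27 and 0.50, and 11 members were positive in all pairs (64.7%, beside 19.4% of all genes). Lep, the hormone leptin, had 437.1, 263.5 and 62.7 CPM in the precipitates against 60.5, 63.2 and 28.6 CPM in the inputs (log2 fold change 2.33 ± 0.62). Cidec, which fuses lipid droplets, had 65.6, 22.7 and 3.18 CPM against 2.86, 3.89 and 2.11 CPM (3.37 ± 0.89). Adipoq, the hormone adiponectin, had 4603, 2563 and 522.7 CPM against 848.5, 1065 and 306.1 CPM. The list median lay between 1.07 without Kif5A library 1 and 2.31 without Kif5A library 3. IgG libraries, at 118516, 77369 and 33851 CPM, held more adipocyte RNA than any input. There 13 of the 17 genes were above all inputs, beside 1341 of all 12867 tested. The part of bound fat RNA in the Kif5A values was not tested.

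Enzymes that make fatty acids and triglycerides showed the same pairs apart. Of 17 tested, 15 had a positive log2 fold change, with a median of 1.08, but pair medians were 1.18, 0.99 and -0.18 and the median without replicate 1 in both groups was 0.56. Dgat2, which adds the last acyl chain of triglycerides, had 2313, 1120 and 146.8 CPM in Kif5A libraries 1 to 3, against 164.0, 211.0 and 170.0 CPM in the inputs, so that libraries 1 and 2 were high and library 3 was below its input. Dgat1 ran the same way at 160.2, 54.0 and 9.14 CPM against 7.69, 6.29 and 11.7 CPM. In IgG libraries Dgat2 was at 3360, 1047 and 530.6 CPM and Dgat1 at 115.0, 125.6 and 65.5 CPM, above all inputs. Of the 17 genes, 10 were wholly above the inputs in IgG and 1 wholly below, beside 1341 and 1777 of all 12867 tested. The list median of Kif5A over IgG was -0.11. The part of such binding in the Kif5A values was not tested. Fads2, Me1 and Elovl6, which desaturate fatty acids, supply NADPH and elongate palmitate, were the 3 members wholly above the inputs, with log2 fold changes of 1.29 ± 0.47, 0.80 ± 0.32 and 0.57 ± 0.30. Cholesterol synthesis had a median of -0.04, or 0.11 with library size alone, and 7 of 18 genes positive.

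Endothelial genes were higher in all 3 pairs for 9 of 14 members (64.3%, beside 19.4% of all genes), and 5 were wholly above the inputs. Plvap, which forms the diaphragms of fenestrated vessels, had 112.5, 87.9 and 35.9 CPM in Kif5A libraries 1 to 3, against 19.7, 24.4 and 14.3 CPM in the inputs (log2 fold change 2.02 ± 0.46). Emcn, a sialomucin of the capillary surface, had 7.39, 6.84 and 9.91 CPM against 2.03, 3.47 and 2.57 CPM. Egfl7, Esam and Tie1 were the others wholly above, while Ly6a was wholly below and Cdh5, the cadherin of endothelial junctions, had a log2 fold change of -0.90 ± 0.42. The median was 0.64, lowest at 0.34 without Kif5A library 1. Summed levels overlapped, at 988.9, 865.9 and 908.8 CPM in Kif5A libraries and 1015, 1041 and 864.7 CPM in inputs. In the IgG libraries 7 of the 14 genes were above all inputs, beside 1341 of all 12867 tested. The part of such binding in the Kif5A values was not tested.

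**Figure D2:**
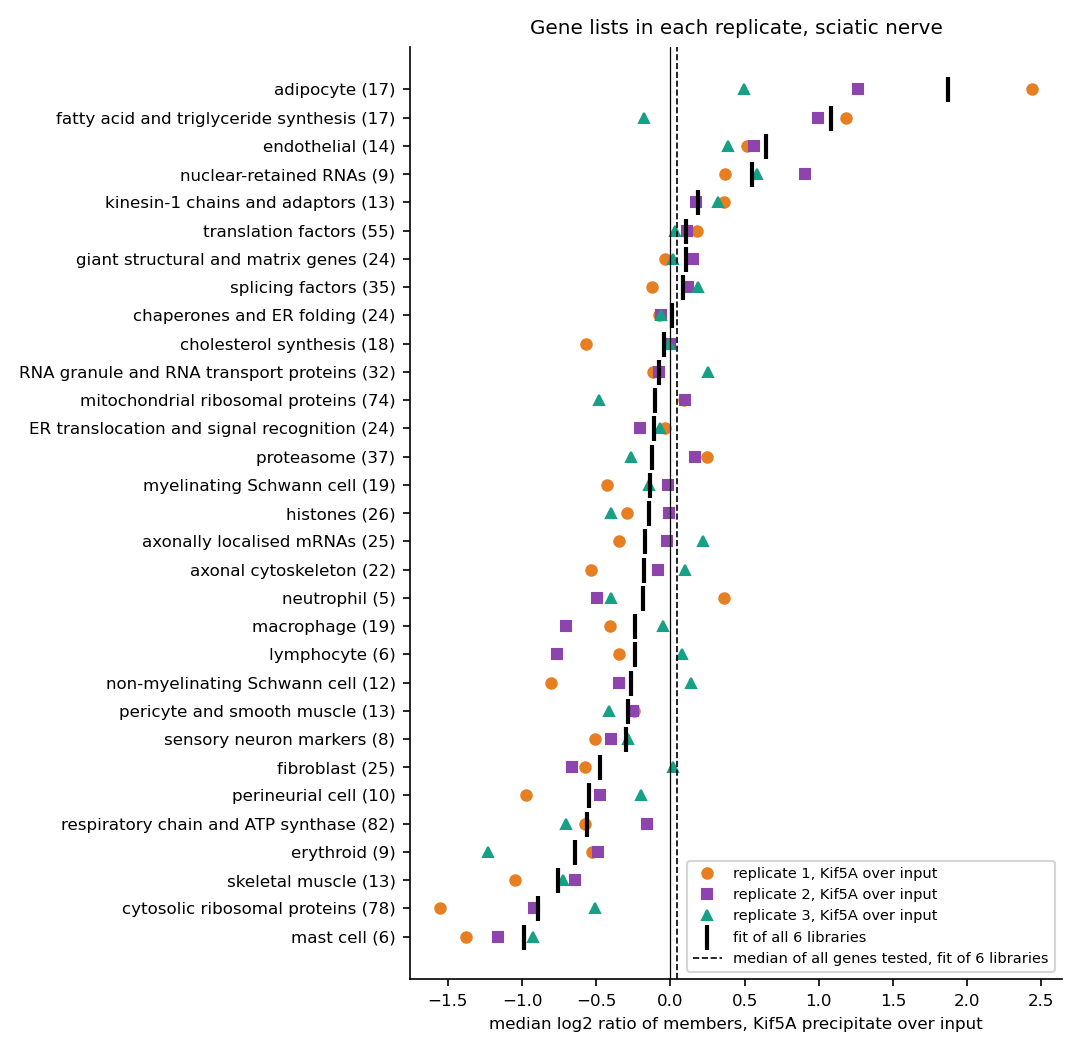
Median log2 ratio of Kif5A precipitate over input for the members of each of 31 lists (number tested in brackets), within replicates 1, 2 and 3 (symbols) and in the fit of all 6 libraries (black ticks), with the median of all genes dashed. Ribosomal proteins and mast cell genes are left of 0 in all 3 replicates, adipocyte and endothelial genes right of 0 in all 3, and replicate 3 parts from the others for fatty acid enzymes.

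Messages of the motor itself and of axons had modest and mixed values. Kif5a mRNA had 13.4, 20.3 and 55.0 CPM in Kif5A libraries 1 to 3, against 7.93, 9.93 and 21.1 CPM in inputs 1 to 3. Each precipitate was above the same-numbered input although the groups overlap, and the log2 fold change was 1.19 ± 0.60. The light chain Klc4 had 48.6, 45.3 and 65.5 CPM against 16.6, 14.2 and 45.8 CPM (1.05 ± 0.47), and the heavy chain Kif5c had 65.2, 102.6 and 98.2 CPM against 47.4, 31.2 and 78.6 CPM (0.76 ± 0.39). The ubiquitous heavy chain Kif5b was at -0.17 ± 0.33 and the light chain Klc1 at 0.83 ± 0.64. Of the 13 kinesin-1 chains and adaptors 9 were positive, with a median of 0.19 that ran from 0.07 with limma-voom to 0.48 without input 3, and Klc2 was not analysed here. In IgG, Kif5a was at 4.75, 6.44 and 6.41 CPM, below all inputs. Klc4 was at 47.9, 46.8 and 49.9 CPM there, above all inputs. Kif5c, at 51.4, 50.3 and 75.1 CPM in IgG, overlapped the inputs.

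Among 25 mRNAs with reported axonal localisation, the median was -0.17, with 4 wholly above and 5 wholly below. With library size alone it was -0.02, with 6 above and 3 below, and without Kif5A library 3 it was -0.35. Actb, beta actin, had 472.8, 1362 and 2779 CPM in Kif5A libraries 1 to 3, against 4733, 5867 and 4856 CPM in the inputs. The precipitates were all lower, with a log2 fold change of -1.74 ± 0.57 (adjusted p = 0.461 with edgeR), and the authors' deposited table gives -2.09 with a false discovery rate of 0.000584 for its transcript. Calr, an ER chaperone, had 143.9, 152.8 and 185.0 CPM against 258.3, 318.3 and 289.3 CPM. Ncl, the RNA-binding protein nucleolin, was on the other side with 350.8, 481.8 and 432.0 CPM against 323.3, 308.2 and 228.6 CPM (0.56 ± 0.31). In IgG libraries Actb and Calr were likewise below all inputs, and Ncl, at 589.5, 535.2 and 468.7 CPM, was above them. Kpnb1, importin beta, was at 0.06 ± 0.28, with a negative value without replicate 3. Mtor was at 0.22 ± 0.34. Stmn2, a neuronal tubulin-binding protein, had 46.9, 74.2 and 62.2 CPM against 111.6, 94.8 and 108.8 CPM. Axonal cytoskeleton genes had a median of -0.18 with 2 of 22 wholly below and 1 wholly above, or 2 below and 4 above with library size alone. That median ran from -0.48 without Kif5A library 3 to 0.04 without input 3.

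Of 8 sensory neuron markers tested, 6 had a negative log2 fold change and 3, Pvalb, Ret and Calca, were wholly below the inputs. The median was -0.30, from -0.81 without Kif5A library 3 to -0.12 with library size alone. The 9 markers with a row summed to 395.9, 462.6 and 319.5 CPM in Kif5A libraries 1 to 3, each above the same-numbered input. Inputs 1 to 3 summed to 357.7, 368.2 and 262.8 CPM, so the groups overlap, and IgG libraries to 586.4, 482.7 and 461.5 CPM. Pvalb, a calcium buffer of proprioceptors that muscle also expresses, had 9.61, 16.4 and 20.3 CPM in Kif5A libraries against 33.7, 35.4 and 33.9 CPM in inputs, and Thy1 had 19.3, 39.6 and 30.5 CPM against 80.8, 82.2 and 38.2 CPM. Ntrk2, the receptor TrkB, was wholly above with a log2 fold change of 0.95 ± 0.36. RNA granule and transport proteins had a median of -0.08, or 0.09 with library size alone, and 5 of 32 wholly above. Tardbp, a nuclear and granule RNA-binding protein, had 24.6, 17.4 and 13.3 CPM against 10.4, 7.94 and 7.19 CPM. Igf2bp1, which binds beta actin mRNA, was the 1 member wholly below, with 0.92, 1.06 and 1.65 CPM against 6.02, 4.80 and 3.60 CPM.

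Myelin genes varied widely between the libraries of each group. Their 20 genes summed to 7100, 12347 and 32246 CPM in Kif5A libraries 1 to 3, against 22306, 25520 and 35494 CPM in inputs 1 to 3, and none of the 19 tested lay wholly on either side of the inputs. The median of -0.14 ran from -0.95 without Kif5A library 3 to 0.46 without input 3, and was 0.02 with library size alone. Cldn19, a claudin of Schwann cell junctions, had 124.7, 193.5 and 390.2 CPM against 343.5, 363.6 and 544.3 CPM, and Mbp had 82.2, 59.1 and 43.0 CPM against 43.9, 40.9 and 36.7 CPM, so single myelin genes pointed both ways. RNAs known to be held in the nucleus had a positive log2 fold change for 8 of 9 members, with 0 wholly above and a median of 0.55 that ran from 0.19 without Kif5A library 2 to 1.03 without Kif5A library 3. They summed to 37773, 48358 and 8700 CPM in Kif5A libraries, against 12540, 17926 and 2378 CPM in inputs. Nearly all of these sums was Malat1, at 37263, 47823 and 8524 CPM in Kif5A libraries and 12260, 17583 and 2260 CPM in inputs. Neat1, the scaffold of paraspeckles, had 197.0, 87.3 and 16.3 CPM against 30.5, 34.4 and 10.7 CPM. IgG libraries summed to 23911, 47442 and 23460 CPM for the list. Neat1, at 135.8, 159.0 and 83.8 CPM in IgG, was above all inputs there.

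The single genes with the smallest p among those that did not overlap and reached 10 CPM came from several of these groups. On the higher side, Pcca, a subunit of mitochondrial propionyl-CoA carboxylase (chr14:122534324-122891100 in GENCODE M21), had 55.9, 18.9 and 21.8 CPM in Kif5A libraries 1 to 3, against 2.27, 3.14 and 2.74 CPM in inputs 1 to 3. All precipitates were several times above the inputs, and the log2 fold change was 3.57 ± 0.55 (adjusted p = 0.447 with edgeR, 4.32e-07 with DESeq2). IgG libraries had 90.1, 41.9 and 4.82 CPM, also above all inputs. Rbp7, a retinol carrier of fat and its vessels, had 32.3, 45.4 and 9.08 CPM against 2.80, 2.48 and 2.86 CPM. Its IgG libraries, at 70.0, 89.5 and 84.9 CPM, lay above every Kif5A library. Gpihbp1, which anchors lipoprotein lipase on capillaries, had 237.8, 179.4 and 16.9 CPM against 13.0, 15.9 and 10.3 CPM. It was far above its input in pairs 1 and 2 and little above it in pair 3, and IgG libraries had 388.9, 439.6 and 668.7 CPM. Gnl2, a GTPase that assembles the large ribosomal subunit, was the most even of these 8, at 42.9, 53.5 and 53.8 CPM against 15.4, 14.7 and 20.7 CPM (1.56 ± 0.34). The others were Slc26a10, an anion exchanger relative, Elmo3, an engulfment adaptor, Lgals3bp, a secreted galectin ligand, and Gramd1a, which moves cholesterol to the ER, with log2 fold changes of 3.20, 3.82, 2.82 and 2.69. In IgG, Slc26a10 was at 19.4, 8.93 and 8.96 CPM and Elmo3 at 11.2, 42.3 and 40.4 CPM, above all inputs. For Gnl2 and Lgals3bp the IgG libraries overlapped the inputs. Gramd1a was the 1 of the 8 whose Kif5A libraries, at 14.6, 8.27 and 7.37 CPM, all lay above the IgG libraries, at 0, 3.36 and 3.45 CPM.

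On the lower side, besides the 3 globins, Lypd2 and Mcpt4, stood Taf4b, a subunit of the TFIID complex, with 1.91, 1.52 and 3.42 CPM against 14.1, 12.3 and 11.3 CPM. Slc6a20a, a transporter of imino acids, had 0.92, 1.52 and 2.18 CPM in Kif5A libraries against 13.5, 12.5 and 5.82 CPM in inputs (-2.77 ± 0.64). Ndn, necdin, a neuronal growth suppressor, had 149.6, 165.4 and 150.0 CPM against 459.2, 455.2 and 273.6 CPM. Among 5 tested genes with no count in any Kif5A library were Myh10, a nonmuscle myosin heavy chain with 65 counts over the 3 inputs, and Gpr141, an orphan receptor with 51; the others were the predicted genes Gm13715, 4933406C10Rik and Gm16036. Zfp653, a zinc finger protein, and Polm, a DNA repair polymerase, had no count in any input and 61 and 44 counts over the Kif5A libraries. All 65 counts of Myh10 belong to a single transcript, so its absence is that of this transcript and not of all Myh10 mRNA. Over the IgG libraries Myh10 had 0 counts, Gpr141 11, Zfp653 111 and Polm 6. Gm13715, 4933406C10Rik and Gm16036 had 245, 50 and 1 there. These 7 were chosen after their values were seen.

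**Figure D3:**
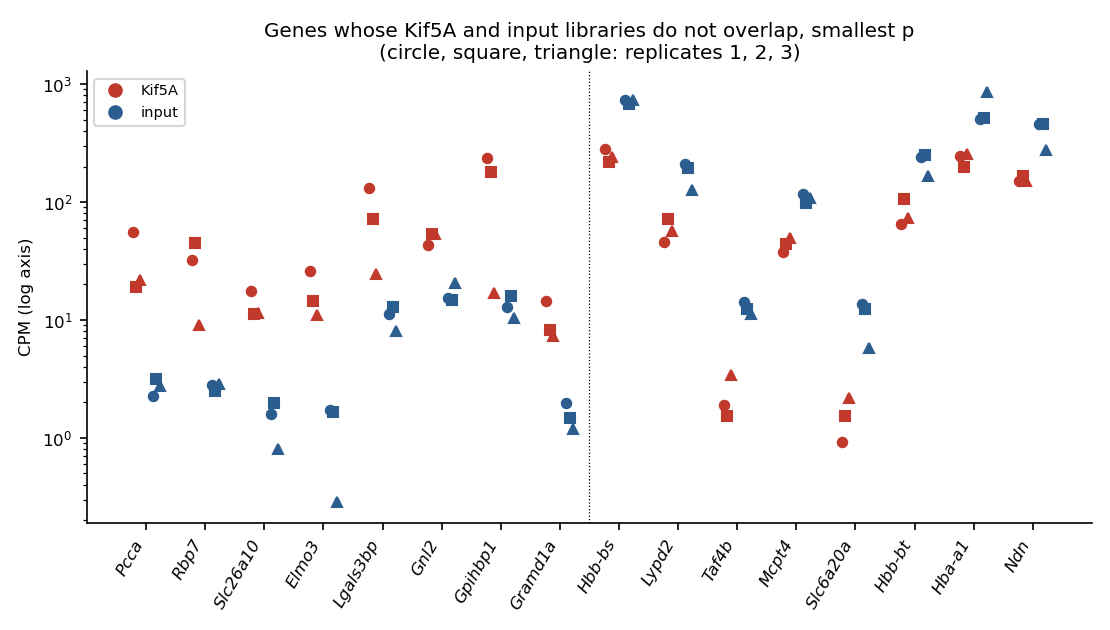
CPM (log axis) in each Kif5A library (red) and input (blue) of the 8 higher and 8 lower genes with the smallest p, with circles, squares and triangles for replicates 1, 2 and 3. For Gpihbp1 and Rbp7 the triangle of replicate 3 lies close to the inputs (16.9 and 9.08 CPM), while globins, Mcpt4 and Gnl2 have all 3 precipitates close together.

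With the replicate number as a block, 4 genes passed edgeR's adjusted p of 0.05. Cd1d1, which presents lipids to T cells, had 105.5, 29.7 and 1.30 CPM in Kif5A libraries 1 to 3, against 2.38, 0.33 and 0 CPM in inputs 1 to 3. Levels differed widely between pairs while each precipitate was above the same-numbered input (blocked log2 fold change 5.89, edgeR adjusted p = 0.00281). Ushbp1, a partner of the Usher protein harmonin, had 99.8, 52.0 and 25.5 CPM against 10.2, 7.45 and 1.48 CPM (3.37, adjusted p = 0.0160). Efhb, an EF-hand protein, was lower at 0.12, 3.56 and 0.35 CPM against 23.4, 62.4 and 5.77 CPM (-4.90, adjusted p = 0.0478). The fourth was the predicted gene Gm11266. The authors' deposited table lists 105 named transcripts higher and 120 lower at a false discovery rate under 0.05 for this comparison, led by that of Ushbp1 with a log2 fold change of 3.30 and a rate of 8.47e-06. In IgG libraries Ushbp1 had 167.5, 166.4 and 174.9 CPM, more than in any Kif5A library. Cd1d1 had 139.0, 25.9 and 17.1 CPM there, above all inputs. Efhb, at 0.10, 0.19 and 0.77 CPM in IgG, was below all inputs.

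Leaving out both libraries numbered 3 raised the calls to 855 genes higher (6.61% of 12928) and 862 lower (6.67%) at an edgeR adjusted p of 0.05. In that fit the spread comes from pairs of like libraries: among transcripts with at least 1000 counts the SD of the log2 ratio between inputs 1 and 2 was 0.186, against 0.821 and 0.862 with input 3, and inputs 1 and 2 still differed by 13.6 times their sampling variance. The third pair, which did not enter, gives a reading of these genes. Of 845 called higher and measured there, 416 were positive (49.2%), beside 49.1% of all genes, and their median log2 ratio was -0.01, against 1.63 in the fit of pairs 1 and 2. Of 847 called lower, 305 were positive (36.0%), with a median of -0.23. The higher calls as a whole thus had no more positive values in the third pair than all genes, and the lower calls had fewer.

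The lists parted in this reading. Without replicate 3, 45 of 78 ribosomal protein genes passed as lower, and 40 of the 45 were negative in the third pair. For the respiratory chain 16 passed as lower and all 16 were negative there, while 5 passed as higher and 0 were positive there. The 4 erythroid, 3 mast cell, 4 muscle and 4 perineurial genes that passed as lower were negative in the third pair. Of 12 adipocyte genes that passed as higher 9 were positive there, but of 8 fatty acid enzymes 3 were. Fibroblast genes gave 11 lower calls, of which 6 were negative in the third pair. Among single genes called without replicate 3, Pcca, Slc26a10, Elmo3 and Ushbp1 had log2 ratios in the third pair of 2.78, 3.21, 3.87 and 3.71, but Gpihbp1 had 0.68, Dgat2 -0.21 and Dgat1 -0.34. Pcca, Slc26a10, Elmo3 and Gpihbp1 were named from genes whose 3 Kif5A libraries all lay above the inputs. Ushbp1 was chosen after its values were seen and also lay wholly above. The positive sign of these genes in the third pair was thus set by their choice and is no separate reading.

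**Figure D4:**
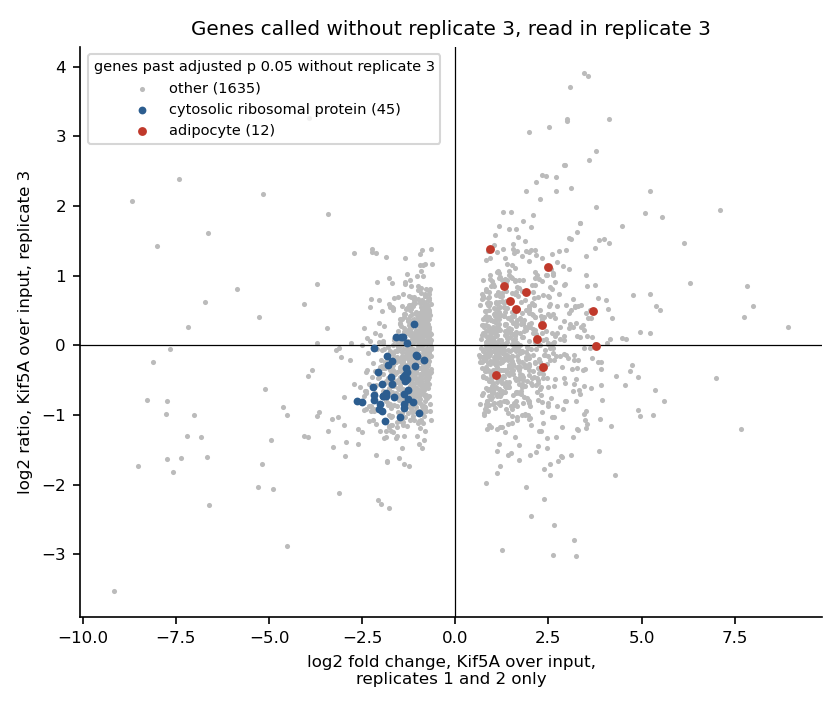
Genes past an edgeR adjusted p of 0.05 in the fit without replicate 3, by their log2 fold change there (horizontal) and their log2 ratio of Kif5A over input in replicate 3 (vertical). Of the 45 ribosomal protein genes (blue) 40 lie below 0 on the vertical axis and of the 12 adipocyte genes (red) 9 lie above it, while the higher genes as a whole are spread evenly about 0 (49.2% above).

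Short transcripts had lower log2 fold changes than longer ones. When genes were split into quintiles by the length of their most counted transcript, the shortest quintile (53 to 1249 bases) had a median log2 fold change of -0.30, with 19.0% wholly below the inputs and 5.00% wholly above. The other quintiles had medians from 0.08 to 0.14. Pair medians of the shortest quintile were -0.31, -0.14 and -0.37. For IgG libraries 1 to 3, each set over the mean log level of the 3 inputs and not over a same-numbered input, the medians were -0.34, -0.47 and -0.24. The shortest quintile also had the lowest median input level, 5.27 CPM against 11.7 to 27.3 CPM in the others. With cytosolic and mitochondrial ribosomal protein genes and respiratory chain genes left out, 16.4% of the shortest quintile were still wholly below, with a median of -0.25. The processed pseudogenes among the most counted transcripts, 417 in number, had a median of -0.57 with 27.6% wholly below, and protein-coding transcripts a median of 0.06 with 7.62% below. Ribosomal protein mRNAs are themselves short, and length and gene class were not separated further.

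Base composition parted the replicates. In pairs 1 and 2 the median log2 ratio was 0.38 and 0.40 in the most GC-rich quintile (55.4% to 76.5% GC) and -0.20 and -0.22 in the least GC-rich (26.3% to 44.0%). In pair 3 the order was turned round, with -0.29 in the most GC-rich quintile and 0.31 in the least, so the fit of 6 libraries, with 0.13 and -0.04, averaged opposite trends. Genes are not independent replicates, and these medians are descriptions.

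**Figure D5:**
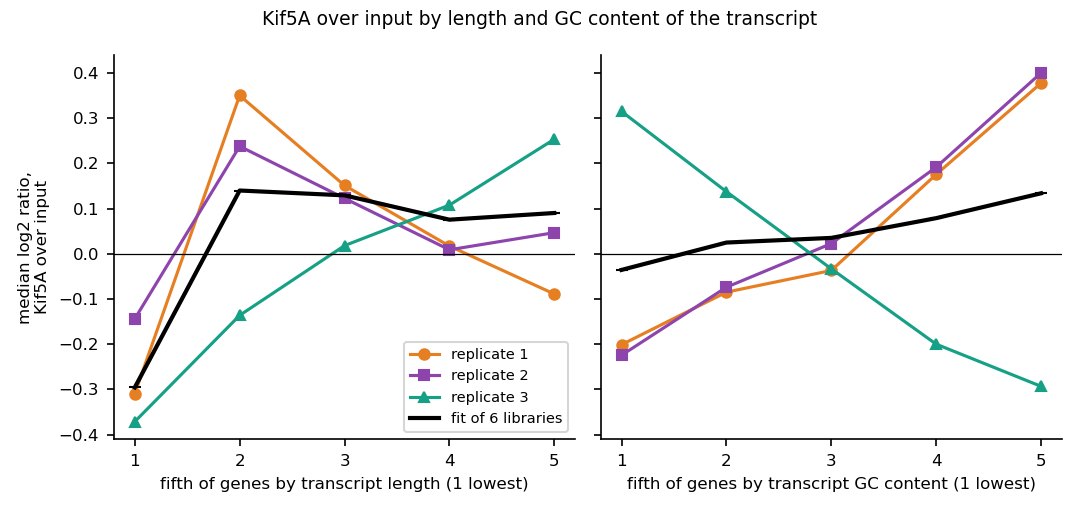
Median log2 ratio of Kif5A over input by quintile of genes from low to high transcript length (left) and GC content (right), in each replicate and in the fit of 6 libraries. The shortest quintile is below 0 in every replicate, and the GC trend of replicate 3, from 0.31 to -0.29, runs opposite to that of replicates 1 and 2.

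Set beside the same comparison in dorsal root, no gene differed between the tissues at an adjusted p of 0.05 with edgeR over 12637 genes (smallest 0.122), with 213 (1.69%) and 169 (1.34%) at an unadjusted p under 0.05 in the sense of higher and lower in sciatic nerve, 15 calls with DESeq2 and 0 with limma-voom. Without sciatic nerve input 1, 1 gene passed. Plvap had 113.3, 89.2 and 35.8 CPM in sciatic nerve Kif5A libraries and 19.8, 24.6 and 14.3 CPM in their inputs, but 4.29, 4.00 and 5.84 CPM in dorsal root Kif5A libraries and 8.60, 5.81 and 5.16 CPM in their inputs (difference of log2 ratios 2.49 ± 0.58). Bcan, a proteoglycan of central glia, was the gene with the smallest p of the difference, -6.39 ± 0.98, with 0.06, 0 and 0 CPM against 0.60, 1.33 and 2.05 CPM in sciatic nerve, where it is rare. In dorsal root it had 29.1, 37.7 and 21.1 CPM in Kif5A libraries, against 19.7, 15.1 and 19.1 CPM in inputs. Retnlg, a neutrophil protein, was lower in the precipitates of both tissues, with log2 fold changes of -4.48 in sciatic nerve and -1.49 in dorsal root. In sciatic nerve it was near the floor, at 0.06, 0.09 and 0.18 CPM against 3.05, 3.16 and 1.70 CPM in inputs. Mmp9 was the 1 of 5 neutrophil genes with a positive value in the fit of the 6 sciatic nerve libraries (1.49 ± 0.54). It had 18.4, 8.31 and 25.9 CPM in Kif5A libraries, 4.23, 6.54 and 7.88 CPM in inputs, and 0.10, 0.43 and 0.09 CPM in IgG.

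By list, medians were -0.88 in sciatic nerve and -1.08 in dorsal root for ribosomal proteins, and -0.55 and -0.89 for the respiratory chain, over transcripts present in both tables. For 12 adipocyte genes they were 1.46 and -0.23, the median difference was 1.58, and 6 of the 12 had an unadjusted p under 0.05 for the difference (1.69% of all genes). Endothelial medians were 0.65 and -0.11, with 12 of 12 differences positive and 1 at an unadjusted p under 0.05.

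Against the isotype control, which shares the Kif5A libraries with the comparison above, 0 of 12594 genes passed with edgeR (smallest adjusted p 0.213; 548 or 4.35% higher and 306 or 2.43% lower unadjusted; 264 with DESeq2 and 0 with limma-voom). The median log2 fold change of Kif5A over IgG was -0.21 for ribosomal proteins, beside -0.89 over input, and -0.67 for adipocyte genes, beside 1.87 over input. For endothelial genes it was -0.80, beside 0.64 over input. For kinesin-1 chains and adaptors it was 0.43, beside 0.19 over input, and for erythroid genes 0.89, beside -0.64.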

How the data were processed

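The authors deposited a table per tissue of raw counts per Ensembl transcript. CASAVA 1.8.2, edgeR and mm10 (GRCm38) are named in the submitters' processing notes; the sources used here do not state aligner, counter or strand setting, so antisense and overlapping genes and near copies are uncertain. Each authors' log2 fold change, p-value and false discovery rate was deposited beside the counts. Counts of named transcripts were summed by gene name; 266 unnamed rows (0.138% to 0.195% of counts) were left out. The test was edgeR 4.0.16 (R 4.3.3, quasi-likelihood, robust, TMM, filterByExpr, Benjamini-Hochberg over all genes, threshold 0.05), with DESeq2 1.42.0 and limma 3.58.1 as alternatives. Only the edgeR test was also run on simulated data. Log ratios of single libraries used a pseudocount of 0.5 CPM. Length and GC are those of the gene's most counted transcript in GENCODE M21.

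By rule, named genes were Kif5a, Kif5b, Kif5c, Klc1, Klc4, Ncl, Kpnb1, Mtor and Actb, then per direction 8 genes with the smallest p among those reaching 10 CPM without overlap (none passed), and 2 per list. Other genes given with values, such as Adipoq, Alas2, Efhb, Ushbp1, Cd1d1, Fads2, Me1, Elovl6, Cdh5 and Ntrk2, and those named only as wholly above or below, were chosen after their values were seen. The members and lists were chosen with earlier results of these data known. Same-numbered Kif5A and input libraries deviated together (r of 0.10, 0.29 and 0.33 over 12136 genes), and the numbers were taken as pairs. The labels do not say that a number marks the same animals. Kif5A library 1 correlated slightly more with input 2 (0.11), and Kif5A library 2 correlated with input 1 at 0.21. These values thus do not clearly tell pairs 1 and 2 apart.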

Additional observations from a re-analysis of the deposited data

How the results depend on the processing

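The count of genes past the threshold between Kif5A and input (0 as reported with edgeR) was 160 with DESeq2, 4 with the replicate block and 5 in a fit of 12 libraries with dorsal root, which was chosen after seeing the data; leaving out libraries gave 0 to 1717. It was 0 with limma-voom, with other scalings and without the filter. The difference between tissues gave 15 genes with DESeq2 and 0 to 1 when libraries were left out, and Kif5A against IgG gave 264 with DESeq2. The causes were not tested. Kpnb1 was the 1 of 85 named values that turned sign, lying between -0.052 and 0.10 when libraries were left out. Of the 85, 63 passed the threshold under at least 1 alternative. The replicate block changed no other call. With 3 pools a group, 1 of which stands apart, the spread sets what can be called; input 2 has the lowest depth.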

Other observations

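Some cell types and gene groups are not described above. Pericyte and smooth muscle genes had a median log2 fold change of Kif5A over input of -0.28, with 3 of 13 wholly below the inputs and 0 above, and the median was negative in all 18 alternatives, from -0.43 without replicate 1 to -0.11 with library size alone. Non-myelinating Schwann cell genes had a median of -0.27, with 1 of 12 wholly above, and the median was 0.01 without replicate 1 and -0.65 without replicate 3. Histones were at -0.14, with 4 of 26 wholly below and 1 above, and ran from -0.33 without replicate 2 to 0.11 without input 3. Lymphocyte and neutrophil genes had medians of -0.24 over 6 and -0.19 over 5 genes, both of which changed sign when some libraries were left out. Giant structural and matrix genes were at 0.10, with 3 of 24 wholly below and 0 above, and the median ran from -0.12 without Kif5A library 2 to 0.25 with library size alone.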
